A study of Mus musculus with 6 samples.

Results

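Between 75 and 110 Mb on mouse chromosome 9 (mm9 build), 730 of the 55681 non-control probes of an Agilent expression array were placed by the coordinates in the array files. Another 19 probes of the interval were left out by gene name: Klhl31, Ctsh, Trpc1 and names beginning Col, Cox, Adamts, Slc25, Usp or Gna. The stretch was selected on the knockout-minus-wild-type differences of the same 6 arrays described here. Those differences are therefore given for its members as a description. Counts and adjusted p-values that rest on them only say where a member stands in the fit over the whole array, and are no evidence about the stretch. The arrays compared cardiomyocytes of H19 KO mice with those of wt littermates. Adult mice of both genotypes had undergone transverse aortic constriction (TAC), an operation that narrows the aorta and loads the left ventricle, and cells were isolated by retrograde perfusion 6 weeks later. Each genotype had 3 arrays hybridised with total RNA. The labels do not name the H19 allele, the age or strain of the mice, or say that each array held 1 mouse, so the spread between arrays may be partly technical. Every level below is the log2 of the scanner's processed intensity with the 75th percentile of the array set to 0. Every difference is knockout minus wild type on that scale.

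The long non-coding RNA H19 is transcribed from an imprinted locus on mouse chromosome 7, strongly in the fetus and weakly in most adult tissues. The chromosome 9 interval is not linked to it, and holds genes for unrelated tasks, among them Snap91 (AP180, which helps assemble clathrin coats at synaptic vesicles), Me1 (cytosolic malic enzyme, a source of NADPH), Hmgn3 (a nucleosome-binding protein), the alpha-class glutathione transferases, and many non-coding transcripts.

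The 60-base probes with the lowest differences were those for Snap91, Hmgn3 and non-coding RNAs between 88 and 89 Mb. Non-coding probes that were lower in knockout are shown whole, 2 of them from 1 lincRNA name, and the last 30 bases are shown for 4 probes of coding genes with large differences. Sequences are those of the array design, 5′ to 3′, and capitals mark the letters AATAAA, the hexamer best known from polyadenylation signals.
9430037G07Rik, chr9:88490190-88490249, minus strand: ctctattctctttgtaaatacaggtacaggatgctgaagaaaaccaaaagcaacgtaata
lincRNA probe at chr9:88598768-88598827, minus strand: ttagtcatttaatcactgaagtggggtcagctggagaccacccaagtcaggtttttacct
lincRNA probe at chr9:88598866-88598925, minus strand: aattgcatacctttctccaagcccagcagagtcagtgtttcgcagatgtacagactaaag
9330159M07Rik, chr9:88736652-88736711, minus strand: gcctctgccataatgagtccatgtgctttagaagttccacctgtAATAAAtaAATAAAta
Snap91, chr9:86660081-86660140, minus strand, last 30 bases: acttccaacttgttgtgagaaatgtttatt
Hmgn3, chr9:83003794-83003853, minus strand, last 30 bases: catcatcctcaagtcacgcaaataccaatt
Pxylp1, chr9:96723767-96723826, minus strand, last 30 bases: ttttgtttttagaAATAAAcattttggaat
Abhd14b, chr9:106355187-106355246, plus strand, last 30 bases: cggaggtccctgaAATAAAgtgatacaatt
The letters AATAAA occurred in 5 of the 21 member probes that differed by at least 2-fold, in 51 of the other 375 tested members (13.6%) and in 12.1% of all tested probes of the array. Their reverse complement, TTTATT, occurred in 1 of the 21, in 4.0% of the other members and in 3.55% of all tested probes. Runs of 25 bases shared with a probe of another name, on either strand, were found for 3 of the 21.

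Of the whole array, 29997 probes had a signal well above background on 3 or more arrays and were tested, and 396 of them (54.4% of the usable members) lay in the stretch. H19 was well above background on 3 wild-type arrays and on 0 knockout arrays, so wild type was at least 64.5-fold higher. All 8 cardiomyocyte markers were detected on every array. The 4 atrial cardiomyocyte markers were detected too, with 3 lower in knockout and a median difference of -3.15. Their summed linear level was 291 to 326 in wild type and 249 to 296 in knockout. All 7 fibroblast markers were higher in knockout, and their summed linear level was 97.6 to 203 in wild type and 147 to 330 in knockout, highest in knockout replicate 2. The summed level of 3 erythroid markers ran from 4.1 to 72.4 in wild type and from 2.03 to 106 in knockout, and it was again highest in knockout replicate 2. The 5 tested macrophage markers were all lower (median -0.58). Their summed level overlapped, at 32.3 to 38.8 in wild type and 20.7 to 42.6 in knockout, highest in knockout replicate 2. Cd163, also listed for macrophages, had a signal well above background on 0 arrays. The part of these cells in the members' values was not tested. Replicate 1 of each genotype was on slide 1, and replicates 2 and 3 were on slide 2.

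The tested members carried 303 gene names, 218 of them established symbols. Another 262 members were not well above background on any array, 70 were on 1 or 2 arrays, and 2 had no usable spot. In the limma fit over all tested probes, 4 members had an adjusted p under 0.05, where 0.0467% of all tested probes did. Because the stretch was selected on this contrast, nothing is read from that count. They were probes for Snap91, 9430037G07Rik, a lincRNA and 9330159M07Rik, and all 4 were lower in knockout. That count became 2 without wild-type replicate 1, 19 without wild-type replicate 3, and 0 without any 1 of wild-type replicate 2 or knockout replicates 1, 2 and 3. With slide as a block it was 2, Snap91 and the lincRNA probe, while 9330159M07Rik and 9430037G07Rik missed the threshold. It was 1, 9330159M07Rik, in the authors' deposited values. At least 2-fold higher were 9 members (2.27%), beside 0.513% of all tested probes. At least 2-fold lower were 12 members (3.03%), beside 1.87% of all tested probes. The genotypes did not overlap for 78 members (19.7%), beside 10.8% of all tested probes. Of these 78, 52 were lower and 26 higher. Single arrays moved these counts too. Without wild-type replicate 3, 16 members were at least 2-fold higher, 32 at least 2-fold lower and 161 without overlap. Leaving out wild-type replicate 2 gave 5 members at least 2-fold higher, and leaving out knockout replicate 3 gave 14. The genotypes did not overlap for 138 members when knockout replicate 1 was dropped and for 124 when knockout replicate 2 was dropped. With 5 arrays non-overlap is easier to reach. In the rest of chromosome 9, the genotypes did not overlap for 117 of 1049 tested probes (11.2%).

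The median difference of the members was -0.08 and that of all tested probes was -0.07, while the SD of the differences was 0.529 against 0.380. Of the 396 members, 234 were lower and 162 higher. That split depended on the scaling: it was 193 lower and 203 higher after quantile normalization. It was 93 lower and 303 higher when each array was scaled to its median, a scaling that moved the median of all probes to 0.36.

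**Figure D1:**
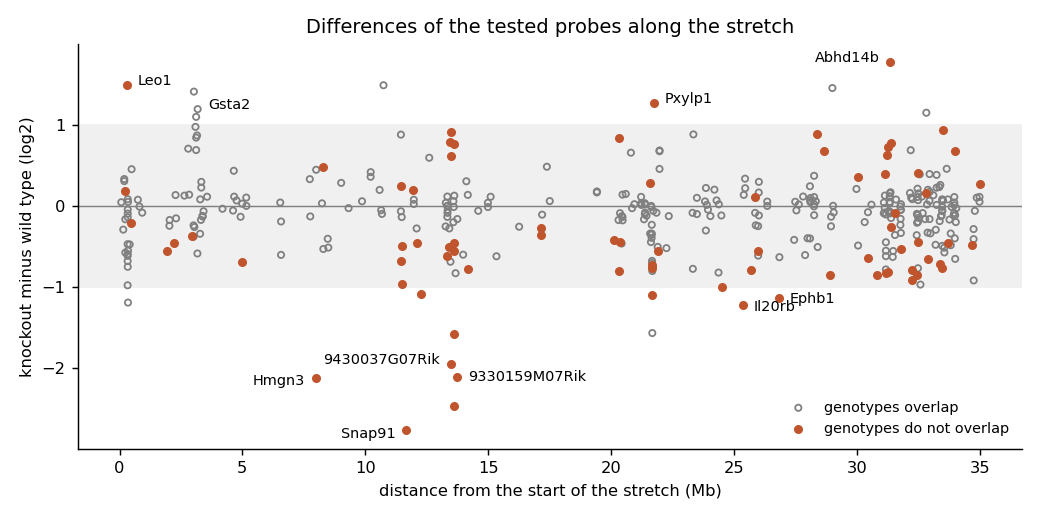
Each point is 1 of the 396 tested member probes. The horizontal axis is the distance from the start of the stretch in Mb and the vertical axis is the log2 difference, knockout minus wild type. Filled points are the 78 probes whose 3 arrays of one genotype all lay beyond the other 3, and the grey band marks differences under 2-fold. The lowest points, from -1.58 to -2.77 except for Hmgn3, lie between 11 and 14 Mb into the stretch.

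Snap91 had the lowest value of the stretch. Its wild-type arrays read -0.745, 0.168 and -0.219, and its knockout arrays read -3.080, -2.963 and -3.053. All 3 knockout arrays were below every wild-type array, and the knockout values lay close together. The difference was -2.77 (SE 0.24), or 6.81-fold, with -2.34 on slide 1 and -2.98 on slide 2. The probe was well above background on all 6 arrays, so the remaining knockout signal was measurable.

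The transcript 9330159M07Rik, a RIKEN clone with no known coding product, read 0.017, 0.005 and 0.520 in wild type. The knockout arrays read -1.800, -1.928 and -2.065, again with no overlap. This is a difference of -2.11 (SE 0.19), or 4.32-fold. The probe lies 6.2 kb from that of Trim43c, a member of the tripartite-motif family on the opposite strand, whose difference was -0.16 (SE 0.17) with overlapping genotypes.

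For 9430037G07Rik, a second RIKEN non-coding transcript, wild-type arrays read -2.768, -2.957 and -2.837 and knockout arrays -4.897, -4.529 and -4.977. None of the knockout arrays was well above background, so the probe had only a bound there. On the scale used here that bound was 3.86-fold, the same as the fold of the readings themselves. It is no firm minimum, because the difference depended on background correction and scaling. It was -1.95 in the main fit, -0.92 with normexp background correction and -1.47 in the authors' deposited values. For such a bound, each knockout array enters with its own reading of the probe or with the dimmest reading that the scanner software still called well above background, whichever was larger.

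The lincRNA named for chr9:88575075-88611650 on the reverse strand had 3 tested probes. At 88598866 the wild-type arrays read -2.582, -2.494 and -2.181 and the knockout arrays -4.678, -5.047 and -4.915, a difference of -2.46 (SE 0.18). At 88598768, 98 bases away, the difference was -1.58 (SE 0.28). Neither probe was well above background in knockout. The bound on the scale used here was 5.51-fold at the first, the same as the fold of its readings, and 2.73-fold at the second. Neither is a firm minimum. With normexp background correction the differences were -1.15 at the first and -0.62 at the second. In the authors' deposited values they were -2.04 and -1.1. The third probe was bright in both genotypes: wild type read 3.865, 3.836 and 4.145 and knockout 4.258, 3.836 and 3.924. Its difference was 0.06 (SE 0.18), and -0.11 on slide 2. The probes of this name spanned 2.52 on the log2 scale, the widest span among the members. On the opposite strand at the same place, the probe at 88598763 differed by -0.01 (SE 0.24).

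Hmgn3 was the other member more than 4-fold lower. It read 1.771, 2.581 and 2.134 in wild type and -0.492, 0.790 and -0.182 in knockout. The genotypes did not overlap, and the difference was -2.12 (SE 0.37), or 4.36-fold, nearly equal on slide 1 (-2.26) and slide 2 (-2.05). The array had 1 member probe for Hmgn3, designed on its transcript variant b. Whether it also reads other forms of the mRNA was not tested.

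**Figure D2:**
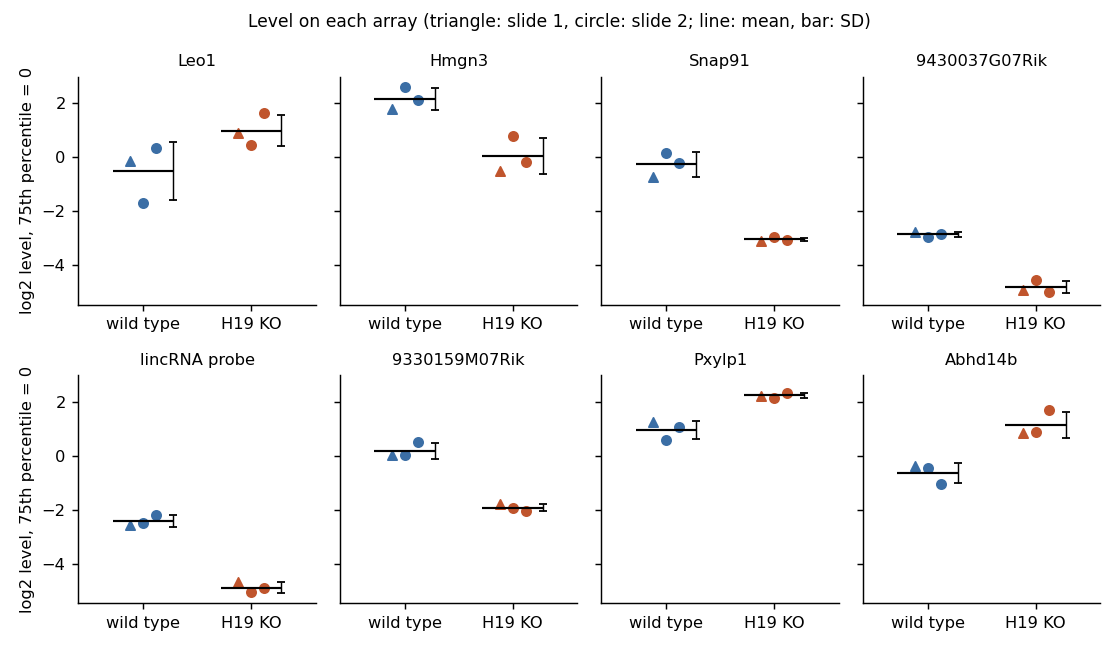
Log2 level on each array for 8 member probes, by genotype, with the 75th percentile of the array at 0. Triangles are arrays of slide 1, circles those of slide 2, the line is the mean of 3 arrays and the bar its SD. In all 8 panels the arrays of the genotypes are apart: 5 probes are lower in knockout and Leo1, Pxylp1 and Abhd14b are higher, Leo1 with the widest spread.

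The 4 probes past the threshold lay within 2.08 Mb of each other. The part from 86 to 89 Mb, which was chosen after these values were seen, held 44 tested probes. Of these, 6 were at least 2-fold lower and 0 at least 2-fold higher, and the genotypes did not overlap for 20 (45.5%): 14 lower and 6 higher. In the remaining 352 tested members, 6 were at least 2-fold lower, 9 at least 2-fold higher, and 58 (16.5%) did not overlap. The SD of the differences was 0.821 in the 86 to 89 Mb part and 0.474 in the rest. Among the lower probes, 9430037G07Rik and the lincRNA probes at 88598768 and 88598866 were well above background in wild type only. They were therefore tested only through the genotype where they are high. When all 6 arrays had to be above background, Snap91 and 9330159M07Rik stayed past the threshold, and 9430037G07Rik and the lincRNA probe dropped out.

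Differences of both directions and probes near 0 alternated within these 3 Mb. Me1 had 3 tested probes, all bright. At 86475215 its wild-type arrays read 4.017, 4.282 and 4.176 and its knockout arrays 3.398, 3.148 and 3.039, without overlap, for a difference of -0.96 (SE 0.17). At 86475077, 138 bases away, the difference was -0.50 (SE 0.17), and at 86480571 it was -0.14 (SE 0.18) with overlapping genotypes. The Rwdd2a probe next to Me1 differed by -0.68 (SE 0.22), while Pgm3, which makes a sugar-nucleotide precursor, differed by 0.24 and -0.07 at its 2 probes. Beyond Snap91, the 3 probes of Cyb5r4, a cytochrome b5 reductase, differed by between 0.02 and 0.19, and Snx14, a sorting nexin, by 0.04. Both Syncrip probes, for an RNA-binding protein, were within 0.05 of 0.

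Zfp949, a zinc-finger gene, was higher in knockout at both of its probes. At 88462049 wild type read -0.617, -0.463 and -0.454 and knockout 0.237, 0.452 and 0.119. The difference was 0.78 (SE 0.16) there and 0.92 (SE 0.21) at 88465683, with no overlap at either. A lincRNA probe on the same strand between them was 0.62 higher (SE 0.20). Mthfsl, a gene resembling methenyltetrahydrofolate synthetase, was higher by 0.77 (SE 0.17), and its probe lay on the minus strand inside the lincRNA interval, 11.6 kb from the lowest lincRNA probe. Its arrays read 1.398, 1.370 and 1.704 in wild type and 2.422, 2.069 and 2.281 in knockout. Snhg5, a host of small nucleolar RNAs, was lower by 0.50 (SE 0.20) at one probe without overlap and by 0.28 (SE 0.20) at the other with overlap. Also lower without overlap were Cep162, a centriole protein, at 1 of 2 probes (-0.45, SE 0.15) and the predicted transcript LOC100048578 (-1.08, SE 0.36), which was dim in knockout.

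**Figure D3:**
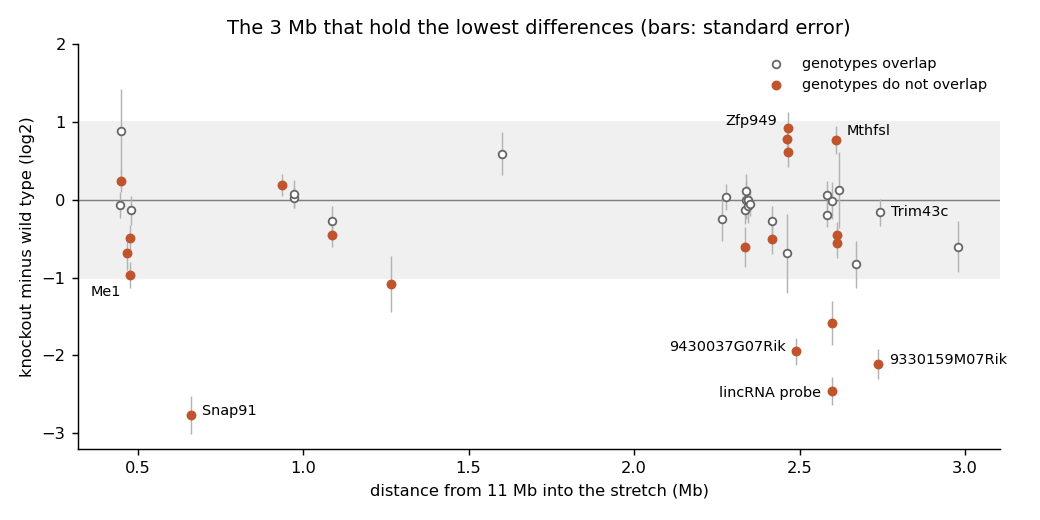
The 44 tested probes between 86 and 89 Mb, placed by distance in Mb from 86 Mb, with the log2 difference, knockout minus wild type, and its standard error. Filled points are the 20 probes whose genotypes did not overlap, and the grey band marks differences under 2-fold. Snap91, the lincRNA probe, 9330159M07Rik and 9430037G07Rik lie near or below -2, while Zfp949 and Mthfsl lie between 0.77 and 0.92 and Trim43c lies near 0.

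Coding genes next to Hmgn3, Abhd14b, Pxylp1 and Snap91 had differences between -0.51 and 0.48. RefSeq's gene order (GRCm38.p6, used for names and order only) was searched for 2 coding genes on each side, and each gene was read by its brightest tested probe. Around Hmgn3, Phip differed by -0.13 (SE 0.15), Irak1bp1 by 0.33 (SE 0.22), Lca5 by 0.48 (SE 0.19) and Sh3bgrl2 by -0.51 (SE 0.37). Around Abhd14b, its paralogue Abhd14a differed by 0.16 (SE 0.17), Acy1 by -0.09 (SE 0.18) and Pcbp4 by 0.17 (SE 0.15). Around Pxylp1, Rasa2 differed by -0.12 (SE 0.20), Zbtb38 by 0.29 (SE 0.14) and Spsb4 by -0.08 (SE 0.21). The genes directly beside Snap91, Prss35 and Ripply2, were not tested. Beyond them, Me1 differed by -0.50 (SE 0.17) and Cyb5r4 by 0.02 (SE 0.14). Dimmer probes of Me1, Spsb4 and Lca5 lay below that range, at -0.96, -0.55 and -0.53. Other members had neighbours further from 0: beside Mthfsl, Zfp949 differed by 0.92 (SE 0.21) and the predicted gene Gm10634 by -0.83 (SE 0.30), and beside Me1, Rwdd2a differed by -0.68.

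Among the 9 members at least 2-fold higher, 3 had genotypes that did not overlap. Abhd14b, an alpha/beta-hydrolase-fold enzyme, was the highest of the stretch. It read -0.394, -0.449 and -1.066 in wild type and 0.822, 0.891 and 1.680 in knockout. The difference was 1.77 (SE 0.30), or 3.41-fold. Pxylp1, the phosphatase that acts on the xylose of proteoglycan linkers and is named Acpl2 on the array, read 1.225, 0.589 and 1.055 in wild type and 2.217, 2.139 and 2.329 in knockout. It was higher by 1.27 (SE 0.20), or 2.41-fold, with 0.99 on slide 1 and 1.41 on slide 2. Leo1, a subunit of the PAF1 complex that travels with RNA polymerase II, read -0.123, -1.711 and 0.337 in wild type and 0.883, 0.457 and 1.623 in knockout. Its difference of 1.49 had an SE of 0.55, and wild-type replicate 2 lay far below the other two. Without that array Leo1 differed by 0.88, under 2-fold.

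The other 6 members past 2-fold in that direction overlapped between genotypes. Tpbg, a membrane glycoprotein, Ackr4, a scavenging chemokine receptor, and Mst1r, a receptor tyrosine kinase, were highest in knockout replicate 2. For Tpbg wild type read -2.246, -4.402 and -3.190 and knockout -2.545, -0.545 and -2.290. Their differences on slide 1 were -0.30, -0.01 and -0.34, against 2.38, 2.18 and 1.89 on slide 2. Knockout replicate 2 was also the array with the highest fibroblast, erythroid, macrophage and smooth muscle marker sums, but not the highest endothelial or lymphocyte sum. Whether such cells bear on these probes was not tested. In the glutathione transferase cluster, Gsta2 was higher by 1.19 (SE 0.48) and Gsta1 by 0.97 (SE 0.51), both enzymes of detoxification. Wild-type replicate 3 of Gsta2, at -1.498, lay within the knockout range of -1.692 to -0.993. The probes of Gsta1, Gsta2 and a lincRNA beside them share runs of 25 bases with probes of other names, so their signals cannot be assigned to 1 gene.

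Smaller differences without overlap in the higher direction included P4htm, a transmembrane prolyl hydroxylase (0.93, SE 0.24), Tmem108 (0.89, SE 0.25), Chst2 (0.83, SE 0.18), Parp3, an ADP-ribosyltransferase of DNA repair (0.77, SE 0.15), Poc1a, a centriole protein (0.72, SE 0.16), Tma7 (0.67, SE 0.19) and Lca5, a ciliary protein (0.48, SE 0.19). Parp3 shows the tightest arrays of these: -0.010, -0.259 and 0.033 in wild type and 0.719, 0.662 and 0.695 in knockout. Parp3 and Poc1a lie within 0.2 Mb of Abhd14b.

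In the lower direction, Il20rb, a receptor chain for interleukin-20 cytokines, read -1.947, -2.033 and -2.205 in wild type and -4.030, -2.627 and -3.201 in knockout. It differed by -1.22 (SE 0.34), more on slide 1 (-2.08) than on slide 2 (-0.80). Ephb1, an ephrin receptor, was bright: wild type read 3.547, 3.370 and 3.262 and knockout 2.986, 2.576 and 1.216. Its difference was -1.13 (SE 0.43), with knockout replicate 3 far below the other two. Without that array it was -0.61, under 2-fold. Also lower without overlap were A4gnt, a glycosyltransferase (-0.997, SE 0.31), Hemk1, a methyltransferase (-0.91, SE 0.32), Col6a5 (-0.86, SE 0.31), Zmynd10, needed for assembling ciliary dynein (-0.85, SE 0.27), Chst2 at a second probe (-0.80, SE 0.28) and Qrich1 (-0.77, SE 0.30). Knockout replicate 3 also weighed on Hemk1 and Qrich1, which differed by -0.56 and -0.43 without it. Without wild-type replicate 1, Col6a5 differed by -0.52 and this Chst2 probe by -0.53. Col6a5 stayed a member because the array names it Gm7455, and it was well above background on 3 arrays only.

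Among the 12 members at least 2-fold lower, 2 had overlapping genotypes, and each held 1 wild-type array far above the rest. The lincRNA probe at 96674192 read 1.135 in wild-type replicate 1 and between -3.916 and -3.319 on the other 5 arrays. Its difference was -1.57 over all arrays, -4.45 on slide 1 and -0.12 on slide 2. The lincRNA probe at 75345079 read -0.807 in wild-type replicate 2 and between -3.658 and -2.718 elsewhere.

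Probes of the same gene were compared next. Of 68 member names with at least 2 tested probes at different positions, 6 spanned at least 1 on the log2 scale (8.82%), beside 167 of 5688 such names of the array (2.94%). The median span was 0.252 in the stretch and 0.156 overall. Signs differed for 24 names (35.3%), against 35% overall. For 3 of the 68 member names some probe passed 2-fold, and for 0 did all probes pass it. Of the 5688 names of the array, some probe passed 2-fold for 219 and all probes for 15. Without wild-type replicate 3, 11 member names spanned at least 1. Snap91, Hmgn3, Leo1, Pxylp1 and Abhd14b had only 1 tested probe each, so probe agreement could not be read for them.

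Both probes of Chst2, a sulfotransferase, separated the genotypes, in opposite directions. At 95301935 wild type read -2.337, -2.881 and -3.411 and knockout -3.609, -3.909 and -3.518. At 95304932, 3.0 kb away, wild type read -2.323, -2.503 and -2.895 and knockout -1.726, -1.745 and -1.761. Tma7, a small protein associated with translation, was read by 2 bright probes 189 bases apart. The first probe was higher by 0.67 (SE 0.19) without overlap and the other differed by -0.40 (SE 0.20) with overlap. The sign of the second probe turned to 0.02 with the arrays scaled to their medians, and was 0.06 on slide 1. Tmem108 had 0.89 and -0.51, and Lca5 had 0.48 and -0.53, each with overlap at the lower probe. The lincRNA at chr9:75316023-75344401 on the forward strand was read by 5 probes, 3 of them overlapping in sequence, and all 5 differed by between -0.75 and 0.08 with overlapping genotypes. Its span of 0.833 was the eighth widest.

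**Figure D4:**
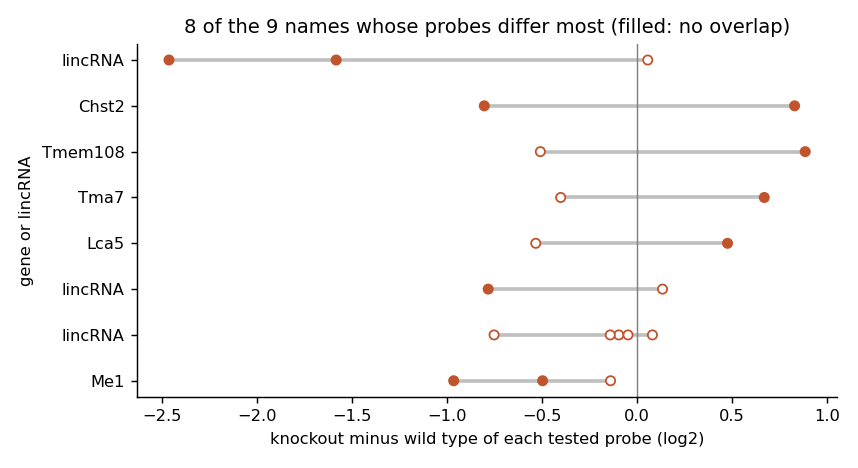
Of the 9 member names with the widest span between their tested probes, 8 are drawn, 1 row each, with the log2 difference of each probe, knockout minus wild type, on the horizontal axis. Filled points are probes whose genotypes did not overlap. The uppermost row, the lincRNA described above, runs from -2.46 to 0.06, and the Chst2 row has a filled point on each side of 0.

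Along the chromosome, windows of 5 Mb with at least 30 tested probes, left-out names included, were ranked among 369 such windows of the genome. Because the stretch was selected on these differences, the ranks and shares are a description and no evidence that it stands out. The window from 85 to 90 Mb had 12.3% of its probes past 2-fold in either direction, the fifth highest share, and 38.6% without overlap. The window from 75 to 80 Mb had 8.82% past 2-fold, the eighth highest, but 11.8% without overlap, close to the array. In the last 5 Mb of the stretch the order was reversed: 2.1% passed 2-fold and 20.3% did not overlap. Just outside the stretch, the windows of 5 Mb before and after it had 11.6% and 12.2% without overlap. Over whole chromosomes, 3.7% of the tested probes of chromosome 9 passed 2-fold, against 1.49% to 2.84% on the other autosomes and the X. That share includes the selected stretch, and in the rest of chromosome 9 it was 2.96%.

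**Figure D5:**
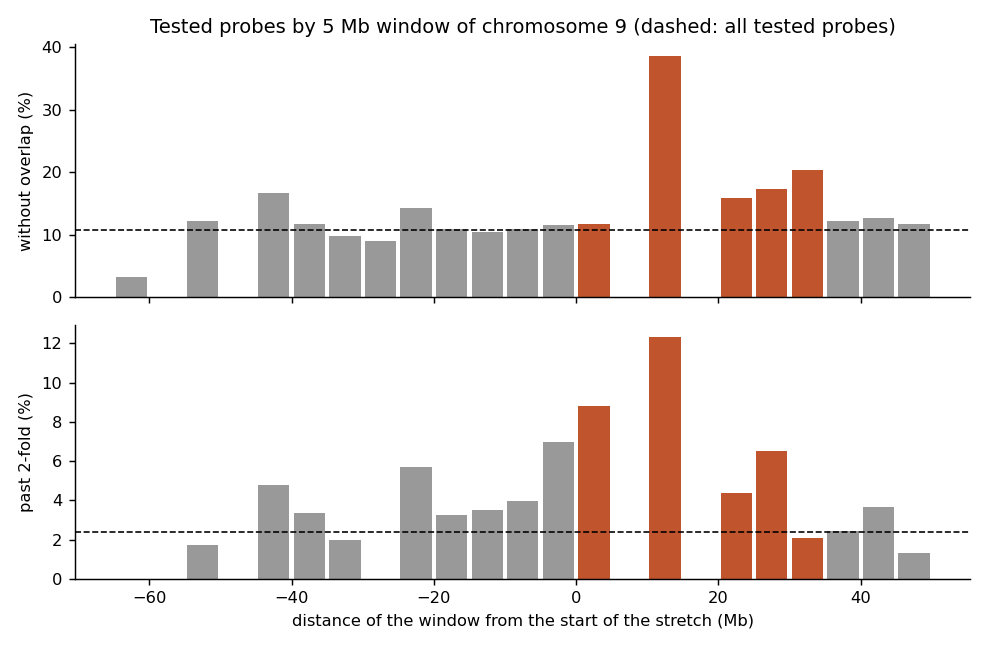
Share of tested probes in each 5 Mb window of chromosome 9, by distance of the window from the start of the stretch in Mb, as percentages: genotypes without overlap above and differences of at least 2-fold below. Coloured bars lie in the stretch, dashed lines are the shares over all tested probes (10.8% and 2.38%), and windows with fewer than 30 tested probes are left blank. The tallest bar in both panels, 38.6% and 12.3%, begins 10 Mb into the stretch.

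The counts were set beside the array separately for bright and dim probes. Of the 259 members with a mean level of -2 or more, 50 (19.3%) had genotypes without overlap and 3.09% passed 2-fold, against 6.51% and 0.871% of the 18825 tested probes of that level on the array. Of the 137 dimmer members, 28 (20.4%) did not overlap and 9.49% passed 2-fold, against 18% and 4.93% of dim probes overall. Dim members had a median difference of -0.41, and the other members 0.02. Dim probes of the whole array had a median of -0.38, and on slide 1 alone -0.75. A direction among dim members is therefore read against that shift.

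The slides, each compared within itself, gave the same sign for 232 of the 396 members (58.6%), beside 45.5% of all tested probes. Among members past 2-fold it was 18 of 21, beside 646 of the 715 tested probes of the array past 2-fold. Probes past 2-fold or past the threshold were picked on a difference that both slides make up, so a shared sign is easier to reach. Slide 1 holds 1 array of each genotype and has no spread of its own. All 4 members past the threshold, and Hmgn3, Pxylp1, Abhd14b and Leo1, had the same sign on both slides.

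The non-coding members were mostly dim. Of 189 lincRNA probes in the stretch 59 were tested, and 46 of these were lower and 13 higher, with a median difference of -0.45. Over all 5889 tested lincRNA probes the median was -0.26, and 4596 were lower. In the stretch 5 of the 59 lincRNA probes were at least 2-fold lower and 1 at least 2-fold higher, beside 196 and 13 of all 5889. The genotypes did not overlap for 20.3% of the lincRNA probes in the stretch, beside 16.1% of all tested lincRNA probes. In the whole stretch 4 members had a signal well above background in each wild-type array and in no knockout array (0.549%), beside 0.244% of the array, and 0 members showed the reverse.

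By function, the medians of the 9 gene lists lay between -0.11 and 0.11, beside the median of -0.07 over all tested probes. Each gene is read here by its brightest tested probe. Of 20 tested genes for GTPase, kinase and growth signalling, Ephb1 passed 2-fold with all arrays, and the median was 0.07. Prkar2a, a regulatory subunit of protein kinase A, differed by 0.46 (SE 0.22) and the kinase Cilk1 by -0.38 (SE 0.21), both with overlap. Among 9 genes of DNA damage and replication, differences ran from -0.06 to 0.11. Stag1 of the cohesin complex differed by 0.11 (SE 0.14), with -0.09 at its other probe. Rad54l2 differed by 0.08 (SE 0.14) and Cdc25a by -0.06 (SE 0.15). The 10 genes of actin and cell structure ran from -0.48 (Tmod2, which caps actin filaments) to 0.26 (Lamb2, a laminin chain), 5 lower and 5 higher, with Myo5c, an unconventional myosin, at -0.29. None of those 10 separated the genotypes.

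In the metabolic group, 16 of 20 listed genes were tested, 10 higher and 6 lower, and Abhd14b and Pxylp1 passed 2-fold. Of 6 tested genes for glutathione and redox reactions, Gsta2 passed 2-fold, and Gsta4 differed by -0.26 (SE 0.20). Among 10 genes of endocytosis and vesicle traffic, Snap91 was past the adjusted threshold. Dop1a differed by 0.88 (SE 0.54) and Rab6b by 0.24 (SE 0.27). In the transcription and chromatin group of 9 tested genes, Hmgn3 was at least 2-fold lower, Leo1 at least 2-fold higher, and Tbx18, a factor of the epicardium and sinoatrial node, differed by 0.59 (SE 0.28) with overlap. The 12 genes of translation and RNA ran from -0.50 (Snhg5) to 0.21, with Rbm15b, an adaptor for RNA methylation, at -0.33 and Pcbp4, an RNA-binding protein, at 0.17. The 3 phospholipid scramblases read -0.27 (Plscr1), -0.11 (Plscr2) and 0.48 (Plscr4), of which only Plscr1 had no overlap. Several of these small differences had no stable sign. On slide 1 the sign was opposite for Dop1a (-0.68), Rab6b (-0.56), Plscr4 (-0.20), Tbx18 (-0.04), Gsta4 (0.18), Plscr2 (0.10) and Cdc25a (0.0054). With arrays scaled to their medians, Myo5c, Cilk1, Gsta4, Plscr1, Plscr2, Rbm15b and Cdc25a were higher in knockout, by 0.05 to 0.36, and Myo5c was 0.03 higher after quantile normalization. Leaving out wild-type replicate 2 or knockout replicate 2 turned Plscr2 to 0.03 or 0.06.

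Just inside 75 Mb, Myo5a differed by 0.04, Myo5c by -0.29 and Gnb5 by 0.33. Just outside, Arpp19 differed by -0.22, the predicted gene Gm2981 by -1.001 and an unnamed probe by 0.06. Just inside 110 Mb, Map4 differed by 0.11 and Dhx30 by 0.05 and 0.28 at its 2 probes, and just outside, 3 probes of Smarcc1 differed by -0.14, -0.19 and -0.72.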

How the data were processed

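RNA of cardiomyocytes was labelled and hybridised to 1-colour Agilent arrays, 3 per genotype, per the labels' protocols. Each array's scanner file, from Agilent Feature Extraction 10.7.3.1 per the file headers, holds a background-subtracted intensity per spot, with no scaling between arrays. The authors' deposited value table, also an intensity, had a median of 69.7 on all 6 arrays and was used as an alternative. Control spots (3671 per array) and outlier spots were left out. Processed intensities were put on the log2 scale, less the array's 75th percentile (774 to 1152.3), and averaged over the spots of a probe. Between 48.8% and 58.6% of spots were well above background and 0 were saturated. The number of arrays limits the precision.

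Genotypes were compared with limma 3.58.1 in R 4.3.3 over all 29997 tested probes with Benjamini-Hochberg adjustment; the fit was tested on simulated data. Coordinates are mm9, per the file headers. Names were updated through RefSeq tables (GRCm38.p6): the accession matched for 383 member probes, the symbol for 50 and an older symbol for 9, and 288 carry the name in the array files. Exons and UTRs were not analysed here. The members, gene lists and naming rules were chosen with earlier results of these data known. Named were members past the adjusted threshold, the 12 largest differences without overlap in each direction, the 8 widest probe spans, up to 3 genes of each list and the edges; some items that the rule names are not reported here. Same-numbered arrays did not deviate together (correlations -0.213 to 0.0311), so the numbers were not used as pairs. With 3 arrays per genotype these correlations cannot settle whether the arrays were paired.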

Additional observations from a re-analysis of the deposited data

How the results depend on the processing

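The alternatives gave 81 values of the reported counts and medians that stayed within 1.5 times of the reported count, or within the spread between arrays, and 41 that moved further. Array weights could not be brought to convergence, gave 1 array a weight of 20.9, and called 10985 probes, 195 of them members. Scaling to the median of all probes gave 33 members at least 2-fold higher, 7 lower, 9 past the adjusted threshold and a median of 0.34. With normexp these counts were 4, 6 and 2, with 3 genes whose probes disagreed. Quantile normalization and the authors' table each left 1 member past the threshold. Requiring all 6 arrays above background gave 6 lower members, 2 past the threshold and 2 disagreeing genes, and requiring 1 array gave 14 higher, 25 lower, 0 past it and 16 disagreeing genes. With the replicate block 0 members passed, and with slide as a block 2. Whether the replicate numbers pair the arrays is not known. Within slide 1, 17 members were higher and 52 lower by 2-fold, and the 86 to 89 Mb part, an alternative added after seeing the data, had 11 lower on slide 1 and 6 on slide 2. Drawing in each edge by 5 Mb kept 196 tested members, 3 of them at least 2-fold higher. At 1.5-fold, 33 members were higher, 59 lower, and 17 genes had probes that disagreed. Leaving out 1 array in turn gave 0 to 19 members past the threshold, 5 to 16 higher, 10 to 32 lower, 5 to 11 disagreeing genes and 99 to 161 members without overlap. Of 62 named probes, 18 changed sign under some alternative, none of them among the 4 past the threshold or Hmgn3, Abhd14b, Pxylp1 and Leo1. Why these counts moved was not tested. Signal over background limits what can be read: 332 usable members were too dim to test, and a bound stands in for a fold where knockout was at background. Such a bound holds only for the main background handling and scaling.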
